A study of Mus musculus with 6 samples.

Results

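The 2 arrays probed with GABPa alone hold 6768 probes that carry a 16-base composite site with 1 or 2 bases changed, of 6889 custom sequences printed on each array. The members were taken by sequence: every 60-base probe whose 16-mer, written in the title of the series, differs from it at 1 or 2 positions, with the 16-mer starting at base 1, 11 or 21 of the probe on either strand. Each of the 48 single substitutions and every double was therefore present in 6 placements, giving 288 and 6480 probes, and each was compared with the unmutated 16-mer in its own placement and strand on its own array. The series has 6 arrays in all, 2 per protein group, and measures binding of proteins to double-stranded DNA immobilised on glass, made double-stranded by primer extension. On these 2 arrays the protein was the DNA-binding domain of GABPa, fused at its N-terminus to glutathione S-transferase (GST), made in a cell-free bacterial translation mix (570 ng of plasmid; volume 250 µl, kept for 2 h at 37 °C), of which 230 µl was put on the array. No CREB1 plasmid was added to these reactions (0 ng). The samples are labelled as mouse, and the readout is a Cy5 signal from bound protein. The isolated domain is not the whole protein, and the labels give its class as bZIP although GABPa is an ETS protein. Nothing in the labels tells whether separate protein preparations were used for the 2 arrays, so the p-values measure the spread between 2 arrays, which may be technical.

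ETS proteins are a family of transcription factors that share a winged helix-turn-helix DNA-binding domain. A recognition helix of that domain lies in the major groove over a GGAA or GGAT core, and bases on either side of the core set how tightly a given member binds. GABPa is the DNA-binding subunit of the GABP complex, which drives promoters of many housekeeping and mitochondrial genes and in the cell pairs with a beta subunit that was not present here. The 3′ part of the composite site, TGACGTCA, is the cAMP response element (CRE), the palindrome bound by dimers of the bZIP protein CREB1; its first T is also the last base of the ETS part.

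The unmutated site and the probes that carry it are given first, because placement and strand set much of what follows. Positions are counted from 1 at the 5′ end of the site, so that the ETS part spans positions 1 to 9, its core positions 4 to 7, and the CRE positions 9 to 16. Capitals mark the core in the site, and the 16-mer in the probes.
unmutated site: accGGAAgtgacgtca
start 1, forward: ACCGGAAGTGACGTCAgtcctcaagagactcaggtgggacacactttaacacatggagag
start 1, reverse: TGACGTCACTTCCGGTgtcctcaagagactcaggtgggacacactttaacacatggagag
start 11, forward: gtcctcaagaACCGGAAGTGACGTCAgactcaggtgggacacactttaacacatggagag
start 11, reverse: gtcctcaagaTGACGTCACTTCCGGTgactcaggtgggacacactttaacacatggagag
start 21, forward: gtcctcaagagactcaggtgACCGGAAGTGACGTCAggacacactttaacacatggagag
start 21, reverse: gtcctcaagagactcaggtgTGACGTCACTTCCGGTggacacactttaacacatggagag
In the forward probe at start 1, position 1 of the site is the first base of the probe, with nothing before it. In all 3 reverse placements the base before position 1, read on the strand of the site, is C; it is A at start 11 forward and G at start 21 forward.

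The substitutions on which the results turn are written here with the changed bases in capitals. The first 8 lie in the ETS part, the next 4 in the rest of the CRE, and the last 8 are doubles.
A1G: Gccggaagtgacgtca
C2G: aGcggaagtgacgtca
C3A: acAggaagtgacgtca
G5T: accgTaagtgacgtca
A7C: accggaCgtgacgtca
A7T: accggaTgtgacgtca
G8A: accggaaAtgacgtca
T9C: accggaagCgacgtca
G10C: accggaagtCacgtca
A11T: accggaagtgTcgtca
G13T: accggaagtgacTtca
C15A: accggaagtgacgtAa
A1G+C2G: GGcggaagtgacgtca
A1G+G8A: GccggaaAtgacgtca
G8A+T9C: accggaaACgacgtca
G8A+G10C: accggaaAtCacgtca
G8A+A11T: accggaaAtgTcgtca
G13T+A16C: accggaagtgacTtcC
G13A+A16C: accggaagtgacAtcC
T14G+C15A: accggaagtgacgGAa

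Each sequence was printed as several spots, of which a median of 23 per probe were kept after outlier spots were dropped (4.17% and 4.76% of member spots on arrays 1 and 2), and no member spot was saturated. The processed signal of the scanner software subtracts a surface fitted over the array, with a median of 1138 on array 1 and 1551 on array 2, where the median background measured around the spots was 151 and 287.5. The median custom spot lay only 353.5 and 430 above its own surround, so that 70.8% and 71.9% of member spots carried a substitute value in place of a signal below background. By that measure 1563 of the 6768 members (128 single and 1435 double substitution probes) were well above background on both arrays, in more than 0.5 of their spots. Low binding is therefore also given from the authors' deposited table, whose values equalled the spot signal minus its local background in all 6891 entries compared. There the 54 doubles with both changes in the core gave a median of 157 to 217 in the 5 brighter placements, or 1.30% to 7.84% of the unmutated site. Retained binding below means the deposited value above the median of those 54 doubles, in percent of the unmutated site above the same level, per placement and array, then averaged over those 5 placements; the choice of that level was made after the values were seen.

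GABPa bound the unmutated site most brightly where the CRE end lay at base 1 of the probe and the ETS part faced inward. In the authors' deposited table the start 1 reverse probe read 8070 on array 1 and 14687 on array 2. The 2 probes at start 11 came next, at 4282 and 8384 forward and 4127 and 7777 reverse, followed by start 21 forward at 3417 and 6176 and start 21 reverse at 2769 and 4730. Lowest was start 1 forward, where the ETS part begins at base 1: 973 and 930, with no spot well above background on either array. The order was the same on both arrays. In the processed signal, start 1 reverse was 2.03-fold brighter than start 11 forward (log2 difference of the dimmer from the brighter −1.02 ± 0.06 SE, limma adjusted p = 0.00576), and start 21 reverse was 1.42-fold dimmer than start 21 forward (−0.50 ± 0.05 SE, adjusted p = 0.0135). The 2 strands at start 11 were not told apart (−0.10 ± 0.04 SE, adjusted p = 0.304); every other pair of placements of the unmutated site passed the test. In the deposited table start 21 forward was also not told apart from either strand at start 11 or from start 21 reverse. The table of such differences over all 16-mers was called lower in 22.4% and higher in 11.8% of 16935 comparisons. Start 1 forward was left out of averages over placements.

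Changing any base of positions 1 to 9 lowered the signal, and no substitution there bound as well as the unmutated base. All 27 single substitutions at these positions were called lower against the unmutated site in the processed signal (limma, adjusted p under 0.05), as were 4 of the 21 at positions 10 to 16, so 31 of 48 or 64.6% were called lower and 2, or 4.17%, higher. Only the 21 substitutions at positions 10 to 16 were above background in all 5 placements on both arrays; for the others the processed signal gives a lower bound on the fold, and the retained binding from the deposited table gives the order. Expressed as the share of the retained binding of the 4 bases that went to the unmutated base, positions 4 and 6 stood highest at 95.0% and 99.3%. Position 5 followed at 88.5%, position 3 at 80.7%, position 7 at 73.9% and position 2 at 67.9%. Position 8 (54.3%), position 9 (52.6%) and position 1 (42.5%) were the most permissive of the 9, and positions 10 to 16 lay between 23.8% and 26.1%, near an even split.

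At the 5′ flank the replacement mattered as much as the position. A1G retained 65.6% on array 1 and 60.4% on array 2 (63.0% ± 3.66, SD, n = 2), and its processed signal was 2.00-fold lower (log2 −0.996 ± 0.035 SE, limma adjusted p = 0.00159). A1C retained 44.2% and 35.1%, and A1T 37.9% and 29.0%. At position 2 a purine kept more than T. C2G retained 29.8% and 21.4% and C2A 20.9% and 13.8%, whereas C2T retained 5.64% and 3.92%. Position 3 kept binding only with A: C3A retained 25.0% and 16.8%, C3G 2.73% and 2.09%, and C3T 1.22% and 0.45%. C2T, C3G and C3T were above background in none of the 5 placements on either array, and each was at least 4.96-fold below the unmutated site, the most that the processed signal could show. In each of these bounds a dim probe took the higher of its own signal and the lowest signal well above background on that array.

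Within the core, 11 of the 12 single substitutions were above background in no placement used. The exception was A7T, which changes GGAA to GGAT, the alternative ETS core: it retained 35.1% and 27.6% (31.4% ± 5.32, SD, n = 2) and was above background in 4 of 10 placements counted over the 2 arrays. Of the rest, G5T retained 11.3% and 6.99% and A7C 4.93% and 3.15%, averages that hide a strand difference given below. G5A retained 4.71% and 2.97% and G4C 3.19% and 2.69%. The remaining 7 retained between −0.49% and 1.40% on average, where 0 is the level of the doubles with both changes in the core. All 12 were called lower, with limma adjusted p from 1.83e-04 to 0.00212.

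At the 3′ side of the core a transition was the mildest change. G8A, which turns the GGAAG of the site into GGAAA, retained 76.8% and 68.2% (72.5% ± 6.06, SD, n = 2), the highest of the 27 substitutions at positions 1 to 9; its processed signal was 1.63-fold lower (log2 −0.70 ± 0.04 SE, limma adjusted p = 0.00398), a call that was lost in the deposited table (−0.46, adjusted p = 0.0719). G8C retained 11.6% and 6.98% and G8T 3.26% and 2.20%. At position 9, the base that the ETS part shares with the CRE, T9C retained 55.4% and 45.5%, T9A 27.6% and 17.5%, and T9G 20.5% and 15.3%. All 3 changes at position 9 were called lower, with adjusted p from 8.07e-04 to 0.00150.

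Weakened sites kept a smaller share on array 2, where the unmutated site was brighter. The unmutated site read 1.71 to 1.96 times higher on array 2 than on array 1 in the 5 placements used, whereas the level of the core doubles was 0.884 times that of array 1 (median). Retained binding was lower on array 2 for 25 of the 27 substitutions at positions 1 to 9, and for all 11 of them that retained at least 10% on both arrays, where it was 0.634 to 0.921 times the value on array 1. At positions 10 to 16 it was lower on array 2 for 16 of 21. The part of protein amount, scanning or background in this difference between the 2 arrays was not tested.

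Several ETS-side changes, and a few in the rest of the CRE, differed with the strand that carried the site. In the processed signal, the effect of a single substitution on the reverse strand differed from that on the forward strand at the same start in 36 of 96 comparisons upward (37.5%) and 5 downward (5.21%), by limma. These counts include probes at the floor. At start 21 the unmutated probes differed by −0.50 (reverse minus forward, log2). Core changes below background on both strands there gave upward calls near that size, such as 0.54 for G4A, 0.48 for G5C and 0.49 for A6G. Where both strands lie at the floor, the difference only restates the gap between the unmutated probes. Both strands were above background in only 45 of the 96, and 6 of these were called higher and 1 lower. The higher ones were A1G and G8A at start 11 and changes at positions 10 to 16. The latter were T14G (0.36) and G13A (0.23) at start 11, and A11T (0.55) and C15T (0.35) at start 21. None of these changes at positions 10 to 16 passed in the deposited table (limma adjusted p from 0.071 to 0.147). In the processed fit the spread was estimated as common to all 96 differences (SE 0.09 for each). Its p-values therefore do not rest on the 2 arrays of each substitution alone, and are smaller than those of the single substitutions. In the authors' deposited table, 16 (16.7%) were called higher and 3 (3.12%) lower. On the percent scale of retained binding, limma called 0 of 96 in either direction (25 at an unadjusted p under 0.05), so no strand call below held on that scale. Changes at position 1 were milder on the reverse strand at both starts. At start 11, A1G retained 52.0% and 45.5% forward and 79.7% and 81.1% reverse, with no overlap (processed difference, reverse minus forward, log2 0.91 ± 0.09 SE, adjusted p = 1.23e-14; 0.69 from the deposited values, adjusted p = 0.024). At start 21 it retained 48.2% and 46.6% forward against 72.4% and 60.9% reverse. A1C and A1T were called higher on the reverse strand at both starts in both measures. At start 21 both were below background on both strands, and the processed difference of A1T there (0.58) lay near the gap between the unmutated probes. The deposited differences at start 21 were 0.70 for A1C and 0.81 for A1T (limma adjusted p = 0.019 and 0.024). A1G was also milder in reverse beside a second change at positions 10 to 16. In all 21 such doubles retained binding was higher in reverse on both arrays at start 11 (medians 49.9% forward and 79.3% reverse). It was so again in all 21 at start 21 (47.5% and 65.3%). Doubles at the same start share the unmutated probe of each strand and the same 2 arrays, here and for the core changes below. Their counts are therefore not separate replicates of a strand difference. The base before position 1 is C in the reverse probes and A or G in the forward ones, and strand and neighbouring base cannot be told apart in this design.

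The core change G5T kept a signal above the core doubles on the reverse strand only. At start 11 the authors' deposited table gave 226.75 and 143.5 on the forward strand, at the level of the core doubles, and 1102.5 and 1049 on the reverse strand. Those values are 0.56% and −0.40% of retained binding forward and 23.3% and 11.7% reverse. At start 21 it retained 1.29% and −0.39% forward and 15.5% and 14.4% reverse, and at start 1 reverse 15.9% and 9.67%. In the deposited table the reverse-minus-forward difference in effect was 2.66 at start 11 and 2.11 at start 21 on the log2 scale (limma adjusted p = 0.010 and 0.021). In the 21 doubles of G5T with a change at positions 10 to 16, the start 11 forward probes retained −0.99% to 1.09% and the reverse probes 9.34% to 17.8%, so the strands did not overlap. G5A and G4C followed the same pattern at a lower level, with 6.61% and 4.03% for G5A and 5.60% and 4.52% for G4C at start 11 reverse. A7C did the opposite: it retained 10.9% and 6.67% on the forward strand at start 11 and 1.78% and 1.41% on the reverse strand (deposited table, −1.32, limma adjusted p = 0.010). Its 21 doubles with positions 10 to 16 were all lower in reverse on both arrays at start 11 (medians 5.78% forward and 2.08% reverse), and 18 of 21 at start 21. Such counts also arose at the level of the core doubles. A6C, with medians of 1.11% and −0.47% at start 11, was lower in reverse in 20 of 21 there and in 16 of 21 at start 21. The counts alone therefore do not set A7C apart. The difference of the single A7C at start 21 did not pass in the deposited table (−0.82, adjusted p = 0.0970). None of these core probes was above background in the processed signal at either start, where A7C gave differences of 0.03 at start 11 and 0.51 at start 21, of the opposite sign. The 2 probes of G5T and of A7C at start 11 are written with the 16-mer in capitals.
G5T, start 11, forward: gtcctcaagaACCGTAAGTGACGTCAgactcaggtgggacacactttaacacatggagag
G5T, start 11, reverse: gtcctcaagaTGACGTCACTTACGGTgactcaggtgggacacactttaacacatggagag
A7C, start 11, forward: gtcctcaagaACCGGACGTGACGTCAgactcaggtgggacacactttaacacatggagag
A7C, start 11, reverse: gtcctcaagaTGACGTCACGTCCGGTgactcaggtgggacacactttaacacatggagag

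T9C bound less on the reverse strand at start 21. It retained 49.0% and 43.4% at start 21 forward and 35.2% and 27.7% at start 21 reverse (deposited table, −0.47, limma adjusted p = 0.043). At start 11 the difference was −0.47 ± 0.09 SE in the processed signal (adjusted p = 8.57e-06), but did not pass in the deposited table (−0.22, adjusted p = 0.147). T9A and T9G passed at neither start in the deposited table. In the processed signal T9A was called lower in reverse at start 11 (−0.53) and higher at start 21 (0.50), but it was below background on both strands at both starts. The 0.50 at start 21 restates the gap between the unmutated probes, and the deposited difference of T9A there was −0.46 (limma adjusted p = 0.0909). G8A was milder in reverse at start 11 in the processed signal (0.37 ± 0.09 SE, adjusted p = 3.72e-04), with retained binding of 73.7% and 66.5% forward against 91.5% and 79.6% reverse, and this did not pass in the deposited table (0.27, adjusted p = 0.084). At start 21 the processed difference of G8A had the opposite sign (−0.41 ± 0.09 SE, adjusted p = 7.22e-05), with 68.8% and 56.6% forward against 62.1% and 53.7% reverse, and it did not pass in the deposited table either (−0.09, adjusted p = 0.493).

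Substitutions at positions 10 to 16, which break the CRE and leave the ETS part whole, had small effects. Their retained binding averaged from 92.2% (A16G) to 115.0% (G13T). G13T, which removes the G of the central CpG, retained 120.1% and 110.0% and C15A 108.6% and 110.5%. These 2 were called higher in the processed signal, by 1.17-fold (log2 0.23 ± 0.03 SE, limma adjusted p = 0.0219) and 1.11-fold (0.14 ± 0.03 SE, adjusted p = 0.0364). Called lower were G10C (−0.18 ± 0.03 SE, adjusted p = 0.0257), T14C (−0.18 ± 0.03 SE, adjusted p = 0.0292), T14G (−0.14 ± 0.03 SE, adjusted p = 0.0364) and A11T (−0.13 ± 0.03 SE, adjusted p = 0.0406). None of these 6 calls was made in the deposited table or after normexp background correction, although all 6 kept their direction.

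In the dim start 1 forward placement substitutions in the core again left little binding, but the order of single positions was not that of the 5-placement mean, since C2A (−2.85%) and C2G (−2.60%) lay at the core level and A1G above G8A. There the authors' deposited table put single substitutions at positions 1 to 3 at −6.34% (C3T) to 46.7% (A1G) of retained binding, and those in the core at −9.69% (A6C) to 15.3% (A7T). G8A kept 38.0%, T9C 15.4%, and the 21 changes at positions 10 to 16 between 75.3% (G10C) and 136.8% (G13C). Across all placements, 4722 of the 6768 probes (69.8%) were called lower and 80 (1.18%) higher by limma; none of the lower calls and 17 of the higher ones came from start 1 forward.

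Among double substitutions the outcome followed whether the ETS part was touched. Of all doubles, 928 (85.9%) were called lower and 19 (1.76%) higher by limma, with a median retained binding of 3.12% over all of them. All 252 doubles with both changes at positions 1 to 8 were called lower; their median retained binding was 0.59% and 245 of them were below 10%. The 72 that joined positions 1 to 8 with position 9 were all called lower too, with a median of 0.42%. A change at position 9 with one at positions 10 to 16 retained 10.6% to 62.7% (median 23.1%, 63 doubles, all called lower). A change at positions 1 to 8 with one at positions 10 to 16 was called lower in all 504 doubles (median 3.08%, highest 83.4%). In the 189 doubles confined to positions 10 to 16, retained binding ranged from 79.4% to 130.1% with a median of 99.2%, 37 were called lower and all 19 higher calls of the table fell here. In this fit the spread was estimated as common to all doubles (SE 0.08 for each), which makes its p-values smaller than those of the single substitutions.

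The 5 highest doubles above background in every placement used all held G13T: with A16C (log2 0.42), G10A (0.31), C15A (0.30), A16T (0.29) and G10T (0.25), with adjusted p from 3.97e-08 to 8.96e-04 by limma. The lowest 5 of those above background throughout all held A1G, with A11C, T14A, C15G, A16C or C12A, and lay between −1.01 and −0.91, close to the effect of A1G alone. That filter takes out the dimmer doubles. Of those with a change at positions 1 to 9 only 23 passed it, all joining positions 1 to 8 with positions 10 to 16. These 5 are therefore the lowest that the filter lets through, and not the lowest of all doubles. Among second changes with both probes above background throughout, the highest effects were those of G13T beside G10A (0.41 ± 0.03 SE, adjusted p = 0.00404) and A16C (0.41 ± 0.05 SE, adjusted p = 0.0172), then A16G (0.32), G10T (0.26) and G10C (0.23). The lowest second-substitution effects among probes above background throughout were those of A1G beside C15G, A16C, C15A, C12A and T14A, from −0.97 to −0.94. The same filter takes out the stronger losses here too. Over all ordered pairs of the table, 955 (44.2%) second substitutions were called lower and 87 (4.03%) higher.

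G10C and A11T, just 3′ of the ETS part, left a smaller share of binding once the ETS part was already weakened. Beside an intact ETS part, G10C retained 93.6% and A11T 95.5% of the unmutated binding. Beside the 11 single substitutions at positions 1 to 9 that themselves retained at least 10% on both arrays, adding G10C left 61.4% (beside G8A) to 85.6% (beside T9C) of the binding of the weakened site, with a median of 73.3%. That was below its share beside the intact site on both arrays in 11 of 11. Those 11 share the same intact value, as they do for each change below, and so are not separate results. Against the weakened site alone, the comparison behind every call beside a weakened site here, 11 of 11 were called lower. A11T left 58.9% (beside T9G) to 91.7% (beside T9C), again below the intact share on both arrays in 11 of 11, with 10 called lower. A11C and A11G, at the same position as A11T, left medians of 96.2% and 95.8%. G10A left a median of 87.5% against 93.9% beside the intact part, with 4 called lower and 1 higher (128.3% beside T9G). Further from the ETS part, T14G left a median of 86.9% against 93.1%, below the intact share on both arrays in 9 of 11 and with 8 called lower, and T14C 88.1% against 92.9%, with 6 called lower. These calls do not test for a greater effect beside weakened sites. That test sets the double against the sum of its single effects (processed signal, limma). For these 11 with positions 12 to 16 it called 0 of 165 pairs below the sum and 18 above. With positions 10 or 11 it called 20 of 66 below and 2 above. Over all doubles 3.98% were below and 31.3% above. G10T had no effect that passed beside the intact part (101.3%), and left 66.1% beside T9A, 70.4% beside T9G and 72.5% beside G8A, but 102.1% beside T9C and 101.9% beside A7T. G13T left 115.1% (beside G8A) to 138.1% (beside T9A) of the binding of the weakened sites, above 100% on both arrays in 11 of 11, with 10 called higher. Beside the intact part it already retained 115.0%, and it lay above that share on both arrays in 8 of 11. All 11 weakened sites were below background in at least 1 placement on 1 array, which compresses the processed signal on which the calls rest.

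The pairs of position 8 with positions 10 and 11 show the size of the combined effect. G8A+G10C retained 51.1% and 38.4%, where the product of its 2 single substitutions is 73.8% and 62.2%. G8A+A11T retained 51.5% and 43.8% against 72.6% and 65.7%, and G8A+G10T 59.4% and 46.1% against 78.0% and 69.0%. On both arrays all 3 lay below the product. In the processed signal their departures from additive log2 effects were −1.03 ± 0.08, −0.86 ± 0.05 and −0.80 ± 0.11 (SE), with limma adjusted p = 0.00461, 0.00188 and 0.0204; the call on G8A+G10T was not made in the deposited table (−0.49). The other changes had departures that did not pass: G8A+G10A retained 68.4% and 53.2% against 73.9% and 62.5%, G8A+A11C 71.5% and 59.2% against 72.0% and 62.6%, and G8A+A11G 75.6% and 65.2% against 71.7% and 66.6%. With G8C in place of G8A the 6 doubles retained 7.08% to 10.3% on average, and with G8T 1.79% to 5.37%.

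Departure from additivity over the whole table depended on what was taken as zero. In the processed signal 338 doubles (31.3% of all) were called above and 43 (3.98%) below the sum of their single effects by limma, but only 189 had all 4 terms above background, and of these 1 was called above (A11G+T14C, 0.19 ± 0.04 SE, adjusted p = 0.0465) and 1 below (G10T+A11T, −0.26 ± 0.04 SE, adjusted p = 0.0257). Where a single change already takes the signal to the floor, a second cannot lower it further, and the sum then lies below the floor. Retained binding from the deposited table was therefore set against the product for the 468 doubles whose 2 single substitutions each retained at least 10% on both arrays. Of the 48 such pairs within positions 1 to 9, 45 lay below the product on both arrays and 2 above it, with a median departure of −1.22 on the log2 scale. In the processed signal 35 of the same 48 lay above the sum on both arrays and 9 below, so the direction turned with the measure. Subtracting the lowest core double instead of the median gave 43 below and 3 above with a median of −0.74, and subtracting nothing gave 40 below and 4 above with a median of −0.51. Among the 66 pairs that joined positions 1 to 9 with 10 or 11, 44 lay below and 11 above the product. The 165 that joined them with positions 12 to 16 split 34 below and 59 above, and the 189 within positions 10 to 16 split 57 and 53.

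A few ETS-side pairs kept their direction in both measures. A1G+G8A, the 2 mildest single changes at positions 1 to 8 together, retained 34.8% and 27.1%, where the product is 50.4% and 41.2% (processed departure −1.13 ± 0.04 SE, limma adjusted p = 6.03e-04). A1G+T9C retained 22.0% and 16.5% against 36.3% and 27.5% (−0.86 ± 0.04 SE, adjusted p = 8.97e-04). A1G+C2G was an exception upward: averaged over the 5 placements it retained 26.4% and 19.2%, above the product of 19.5% and 12.9% on both arrays and near the level of C2G alone (processed departure 0.72 ± 0.06 SE, limma adjusted p = 0.00388). The placements differed. At start 11 forward the double read 20.9% and 10.9% of the unmutated intensity in the deposited table, against 34.5% and 21.3% for C2G alone. At start 11 reverse it read 40.1% and 27.3% against 39.1% and 23.2%. C2G alone was above background in only 2 of 10 placements counted over the 2 arrays. The floor lifts a processed departure there, so that value adds nothing to the retained binding. G8A+T9C retained 48.2% and 37.0%, above its product of 42.5% and 31.0% (0.31 ± 0.05 SE, adjusted p = 0.0221), a call not made in the deposited table or after normexp background correction. This double was below background on both strands at start 21, so its processed departure has the same limit.

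Doubles that give the 16-mer a GGAA or GGAT core that it otherwise lacks fell into 3 kinds. In 36 doubles A7T put GGAT in place of GGAA with the second change elsewhere, and these retained 0.21% to 39.4% with a median of 27.1%; the highest was A7T+G13T at 42.3% and 36.4%. In doubles of another kind the new core replaced the old one at a shifted place, and the 3 given here stayed near the level of the core doubles: C3G+G5A (GGAA at positions 3 to 6) retained 1.35% and 0.90%, A6G+G8A (GGAA at 5 to 8) 0.01% and −0.27%, and A6G+G8T (GGAT at 5 to 8) −0.65% and 0.26%. In the other 7 the new core was added to the old one. Of these, 3 carried T9G, the change that weakens position 9: T9G+G10A retained 27.3% and 18.9%, T9G+C12A 26.0% and 18.6%, and T9G+C12T 21.8% and 17.7%, beside 20.5% and 15.3% for T9G alone. T9G+G10A lay above the product of its single effects (processed departure 0.42 ± 0.04 SE, limma adjusted p = 0.00567); the other 2 departures did not pass (adjusted p = 0.0586 and 0.115).

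The double with the highest signal of all, G13T+A16C, holds ETS cores on both strands. Its sequence, with both cores in capitals, is as follows.
G13T+A16C: accGGAAgtgacTTCC
The second core is flanked as the first is on its 3′ side, so that GGAAGT is read once on each strand; of the 1129 16-mers of the design, this is the only 1 with GGAAGT on the opposite strand, where 437 have it on the same strand. It retained 123.8% and 136.3% (130.1% ± 8.80, SD, n = 2) averaged over the 5 placements. Its departure from additivity there did not pass (0.18 ± 0.07 SE, adjusted p = 0.168); G13T alone retained 115.0%. It was brighter than the unmutated site in all 6 placements on both arrays, but by different amounts. At start 21 forward the authors' deposited table gave 143.0% and 167.6% of the unmutated intensity (processed log2 difference 0.89 ± 0.08 SE, limma adjusted p = 2.79e-04), whereas at start 1 reverse it gave 120.6% and 127.4% (0.21 ± 0.07 SE, adjusted p = 0.0542).

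At start 1 forward, where the original ETS part lies at the end of the probe and the added core lies further in, the contrast was largest. G13T+A16C read 2960 and 4453 in the deposited table, against 973 and 930 for the unmutated probe, which is 304.2% and 478.6%. It was the 1 member of 1128 in that placement that was above background on both arrays, and its processed signal was at least 2.67-fold higher than that of the unmutated probe (adjusted p = 6.44e-07). Next came G13A+A16C, whose added core is GGAT on the opposite strand, at 1495 and 1625 (153.6% and 174.6%). T14G+C15A, whose added GGAA is on the same strand at positions 13 to 16, read 1274 and 1484 (130.9% and 159.5%), and G10T+A11C, with an added core on the opposite strand at positions 9 to 12, read 853 and 904 (87.7% and 97.2%). Doubles with no added core also lay in this range, among them G13T+A16T at 1409 and 1611 and G13C+A16T at 1382 and 1506. Averaged over the 5 brighter placements, G13A+A16C, T14G+C15A and G10T+A11C retained 106.1%, 103.0% and 99.2%, and none of the 3 passed the test against the unmutated site (adjusted p = 0.282, 0.844 and 0.357).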

How the data were processed

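The authors deposited each array's scanner output (Agilent Feature Extraction 12.0.1.1, per the file headers), a 1-colour Cy5 intensity per spot, and a value table whose intensity equals spot median minus local background. The spot signal used in tests was the software's processed intensity, taken as the mean log2 over spots not marked as outliers; a spot was well above background at 13 SD, per the file headers. Each probe was set against the unmutated site on the same array, averaged over 5 placements, and tested with limma 3.58.1 in R 4.3.3 (Benjamini-Hochberg adjustment over all features of a comparison, threshold 0.05). With 2 arrays the precision is limited, and the number of arrays sets it. Bounds used the lowest signal above background. Genes were not involved; any single substitution, every double that adds a GGAA or GGAT core, every double of position 8 with 10 or 11, and the 5 highest and lowest doubles of each measure could be named, and ETS-side pairs and start 1 forward probes besides these were chosen after their values were seen. The members and lists were chosen with earlier results of these data known. Alternatives were another background correction (normexp, offset 50), the deposited table, medians over spots, outliers kept, an intensity trend, dim probes left out, 6 placements, no pairing within arrays, and each array left out. The code was tested on simulated data. The other custom sequences and protein groups were not used here. A double substitution that the naming rule covers is not reported here.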

Additional observations from a re-analysis of the deposited data

How the results depend on the processing

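Of the values of named substitutions, 1082 of the comparisons with an alternative kept direction and side of the threshold; 56 no longer passed, 31 newly passed, 14 changed sign without a call or moved otherwise, and 4 reversed. The 4 were the strand difference of A7C, which was 0.03 at start 11 and 0.51 at start 21 in the processed signal, −1.07 and −0.53 after normexp correction and −1.32 and −0.82 in the deposited table; normexp and the deposited table do not use the fitted surface. Leaving out either array leaves 1 array and so a value with no test; in the 126 named values neither array alone changed the sign of a called result.

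Counts of calls moved by over 1.5 times as follows. Leaving out dim probes, which tests fewer features, gave 8 lower and 4 higher single substitutions, 653 lower by placement, 90 lower and 37 higher doubles, 9 lower and 16 higher departures, 124 lower second substitutions, 1 lower and 4 higher strand differences, and 0 higher placement differences. The deposited table gave 0 higher single substitutions, 1 higher by placement, 0 higher doubles, 0 higher second substitutions, and 3 lower and 16 higher strand differences. Without dim probes, the deposited table gave 6 lower single substitutions, 561 lower and 32 higher by placement, 47 lower doubles, 1 lower and 1 higher departure, 81 lower and 49 higher second substitutions, 0 lower and 5 higher strand differences, and 0 higher placement differences. Normexp correction gave 0 higher single substitutions, 16 higher by placement, 1 higher double, 28 lower departures, 19 higher second substitutions and 13 lower strand differences. The intensity trend gave 5 higher single substitutions, 49 higher doubles, 149 lower departures, 222 higher second substitutions and 9 lower strand differences. Retained percent, added after the data were seen, gave 187 higher by placement, 37 higher doubles, and 0 lower and 0 higher strand differences. All 6 placements averaged gave 34 higher doubles, and keeping outlier spots gave 9 lower strand differences. Beyond the smaller number of features tested, the cause of these moves was not tested.

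Every effect was a difference within an array, which pairs the arrays by design; with no replicate block the counts were 32 lower and 3 higher single substitutions, 4684 lower and 62 higher by placement, and 928 lower and 19 higher doubles. With 2 arrays, about 3 in 4 members were below the scanner background. No single substitution at positions 1 to 9 was above background throughout in the processed signal. The folds of these single substitutions against the unmutated site are therefore bounds. Among doubles, 23 that joined positions 1 to 8 with positions 10 to 16 were above background throughout. Small differences at positions 10 to 16 passed only in some measures.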
